A study of Mus musculus with 4 samples.

Results

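Perforin and the granzymes are the killing proteins of cytotoxic lymphocytes, and the accessibility of 6 of their genes was followed in natural killer (NK) cells of the mouse, innate lymphocytes that kill infected or transformed cells. The genes are Prf1, Gzmb, Gzmm, Gzma, Gzmk and Gzmc. They were taken by gene name, as 6 of 21728 protein-coding genes (chromosome Y left out), and every accessible region, footprint and base at which cutting passed a false discovery rate (FDR) threshold in each gene body and 50 kb on either side was collected. Windows of neighbouring members overlap, so the 6 genes form 4 loci of 576 kb in all, which held 91 of the 78144 accessible regions of the genome. The assay was DNase-seq, in which the enzyme DNase I cleaves DNA that is free of tightly packed nucleosomes, so that accessible sites collect many cuts. All libraries belong to a single group, primary NK cells from female virgin B6CASTF1/J mice aged 2 months (an F1 cross between C57BL/6J and CAST), with no genotype, treatment or time that differs between them. The 4 libraries are labelled biological replicates 1 to 4, each with its own biosample but with 1 donor identifier in common, and the labels give neither the tissue nor the sort. The spread over libraries may therefore be partly technical, and no condition can be compared with another.

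Perforin, made by Prf1, is stored in secretory granules and forms pores in the membrane of a target cell, through which granzymes enter the cytosol. Granzymes are serine proteases that differ in the bonds they cut. Granzyme B, from Gzmb, cuts after aspartate and activates caspases, granzymes A and K are tryptases, granzyme M prefers methionine, and granzyme C is a rodent enzyme encoded close to Gzmb. In the mouse, Gzma and Gzmk lie together on chromosome 13, Gzmb and Gzmc lie in a protease cluster on chromosome 14 that also holds mast cell proteases, and Gzmm lies on chromosome 10 in the neighbourhood of neutrophil elastase. DNase-seq reads chromatin and not RNA, so the values below are accessibility and say nothing of transcript levels.

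The promoters of Prf1 and Gzmb were accessible in all 4 libraries and held footprints, short stretches protected from DNase I inside an accessible region. Their sequences are printed because both promoters carry footprints that recurred between libraries. Each is written 5′ to 3′ on the strand of its gene, from the mm10 assembly. Capitals mark a merged footprint, the whole stretch covered by overlapping footprints from at least 3 of the 4 libraries. A single capital base may therefore lie in the footprints of fewer than 3 libraries. The Prf1 sequence is the whole accessible region chr10:61297541-61297840 (+ strand), and the Gzmb sequence runs from 250 bp before to 50 bp after the gene start at chr14:56262211-56262510 (- strand). The assembly is the C57BL/6J genome, and bases that differ on the CAST copies were not analysed here.
Prf1 promoter: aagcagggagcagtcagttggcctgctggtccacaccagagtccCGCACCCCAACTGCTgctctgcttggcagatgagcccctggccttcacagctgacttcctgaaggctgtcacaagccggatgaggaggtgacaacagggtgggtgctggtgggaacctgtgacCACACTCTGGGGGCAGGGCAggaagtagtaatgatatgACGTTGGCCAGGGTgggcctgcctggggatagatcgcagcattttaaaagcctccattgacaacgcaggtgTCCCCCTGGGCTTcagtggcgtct
Gzmb promoter: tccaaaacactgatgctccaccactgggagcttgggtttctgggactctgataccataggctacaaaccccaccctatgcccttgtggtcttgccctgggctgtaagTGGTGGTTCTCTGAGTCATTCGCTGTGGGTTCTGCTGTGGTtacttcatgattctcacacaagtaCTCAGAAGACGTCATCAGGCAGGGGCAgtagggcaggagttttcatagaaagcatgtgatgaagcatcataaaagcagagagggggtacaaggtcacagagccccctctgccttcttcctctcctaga

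The distal sequences below are the region with the highest mean signal outside promoters in the Prf1, Gzmb and Gzmm loci, and, for Gzma, the nearest recurrent region to its start that held such a footprint. Positions are chr10:61261321-61261620 (+ strand, the central 300 bp of a region of 580 bp), chr14:56284371-56284670 (- strand), chr10:79692041-79692340 (+ strand) and chr13:113104841-113105060 (- strand).
Prf1 distal: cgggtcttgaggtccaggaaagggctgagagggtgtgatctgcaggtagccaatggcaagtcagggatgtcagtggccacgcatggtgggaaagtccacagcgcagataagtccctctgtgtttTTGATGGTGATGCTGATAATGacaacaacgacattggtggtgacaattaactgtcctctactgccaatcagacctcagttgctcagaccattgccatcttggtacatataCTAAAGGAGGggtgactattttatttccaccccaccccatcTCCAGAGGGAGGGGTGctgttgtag
Gzmb distal: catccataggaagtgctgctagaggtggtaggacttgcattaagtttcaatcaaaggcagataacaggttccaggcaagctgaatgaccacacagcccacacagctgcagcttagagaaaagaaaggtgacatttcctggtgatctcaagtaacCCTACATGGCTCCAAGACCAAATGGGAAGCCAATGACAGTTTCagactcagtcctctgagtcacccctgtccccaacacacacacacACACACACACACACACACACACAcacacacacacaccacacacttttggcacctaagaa
Gzmm distal: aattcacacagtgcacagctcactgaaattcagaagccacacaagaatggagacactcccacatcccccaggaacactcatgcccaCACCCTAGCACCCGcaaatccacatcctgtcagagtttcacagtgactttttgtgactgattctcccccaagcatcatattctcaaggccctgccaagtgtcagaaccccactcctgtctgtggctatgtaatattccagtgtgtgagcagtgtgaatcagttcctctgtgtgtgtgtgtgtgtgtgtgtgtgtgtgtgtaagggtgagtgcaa
Gzma distal: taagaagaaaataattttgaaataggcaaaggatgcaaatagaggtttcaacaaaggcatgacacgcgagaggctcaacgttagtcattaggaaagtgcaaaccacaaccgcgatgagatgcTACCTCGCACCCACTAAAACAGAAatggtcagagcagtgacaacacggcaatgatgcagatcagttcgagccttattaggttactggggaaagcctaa

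The libraries differed in how much chromatin was called accessible. Replicate 3 had 69144 peaks, and replicates 1, 2 and 4 had 44092, 47464 and 36247. The bases with an FDR below 0.05 covered 27.7 Mb in replicate 3 and 12.7 to 18.95 Mb in the others. The signal of a peak is the authors' value, whose scale between libraries is not given, and its median over regions found in all 4 libraries was 2.85 in replicate 3 and 1.39 to 1.98 in the others. The files hold no read counts, so depth is unknown and no counting interval can be given. Promoter values of the 6 genes are therefore given per library, and replicate 3 is described on its own further down. Of 7 NK cell markers that are no members, 3 had a recurrent promoter region, against 50.3% of all protein-coding genes. These were Ncr1, which encodes the activating receptor NKp46 (promoter signal 4.45 ± 2.72, SD, n = 4), Il2rb, an interleukin-2 receptor chain (7.73 ± 3.91), and Eomes, a T-box factor (2.59 ± 1.08), each with a peak in every library. The other NK markers were not recurrent, with a peak in replicate 3 alone at Klrb1c and in 2 libraries each at Klrk1, Klrd1 and Tbx21. Among T cell markers the promoters of Cd3e, Cd3d, Cd6, Cd8a, Cd8b1, Cd4 and Trat1 had no peak in any library, while Cd3g had one in 3 libraries, at a mean of 0.409, and Cd5 in replicates 2 and 4 (0.584 and 0.730). Cd3d had a recurrent region at another transcript start. B cell markers were present at low signal, with 4 of 6 promoters recurrent, against 50.3% of all genes. The highest was Ebf1 at 1.75 ± 0.668 (SD, n = 4).

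Perforin and granzyme B had the most accessible promoters of the 6 genes, and the other members had little or none. A recurrent promoter region, meaning a peak in at least 3 of 4 libraries within 1 kb of the gene's 5′ end, was found at Prf1 and Gzmb, which is 2 of 6 members against 50.3% of all protein-coding genes. In replicate 3 all 6 members had a promoter peak, against 54.3% of all genes in that library, and in replicates 1, 2 and 4 it was 2, 2 and 3 members, against 50.8%, 52.2% and 49.8% of genes. No test of the members as a class was run. In a bulk assay, a site open in fewer cells and a site cut less in each cell cannot be told apart.

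Prf1 spans chr10:61297833-61304680 on the + strand. Its promoter signal was 4.29, 4.89, 10.4 and 4.96 in replicates 1 to 4, a mean of 6.14 ± 2.87 (SD, n = 4). On the deposited scale, replicate 3 stood well above the other libraries, which lay within 0.67 of each other. Ranked within each library, 77.5%, 75.03%, 87.0% and 80.7% of protein-coding genes had a lower promoter signal. The region ended 7 bp past the gene start, and a second, weaker region 0.642 kb upstream (chr10:61296901-61297480) had signals of 1.09, 1.04, 2.61 and 0.865, a mean of 1.40 ± 0.811 (SD, n = 4). The other annotated Prf1 transcript start, at 61299801, had no peak in any library.

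Gzmb spans chr14:56258838-56262260 on the - strand. Its promoter region (chr14:56262061-56262500) spans the gene start and had signals of 2.55, 3.09, 8.56 and 1.92, a mean of 4.03 ± 3.06 (SD, n = 4). Replicate 3 was again highest, and without it the mean was 2.52 ± 0.585 (SD, n = 3), so 1 library moved the value by more than 1.5 times. Within libraries, 67.1%, 66.8%, 82.6% and 65.5% of genes were lower.

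The other 4 promoters had signal in replicate 3 and rarely elsewhere. Gzmk (chr13:113171608-113225908, - strand) had no promoter peak in replicates 1 and 2, 1.29 in replicate 3 and 0.404 in replicate 4. Gzma (chr13:113093825-113100981, - strand) had 1.46 in replicate 3 and no peak in the other libraries. That Gzma peak lay close to the 1 kb limit, and a window of 500 bp held a weaker peak of 0.972. Gzmm (chr10:79689020-79695261, + strand) had 1.31 in replicate 3 and no peak elsewhere. Gzmc (chr14:56231441-56234656, - strand) had 0.465 in replicate 3, a peak that the authors' shorter, stricter peak list does not hold. A promoter peak in replicate 3 and in no other library was found at 2.25% of all genes, and at 3 of the 6 members, Gzmm, Gzma and Gzmc. Gzmk also has internal transcript starts at 113180897 and 113180921, within 1 kb of which replicate 1 had a peak of 0.447 and replicate 3 one of 0.930.

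**Figure D1:**
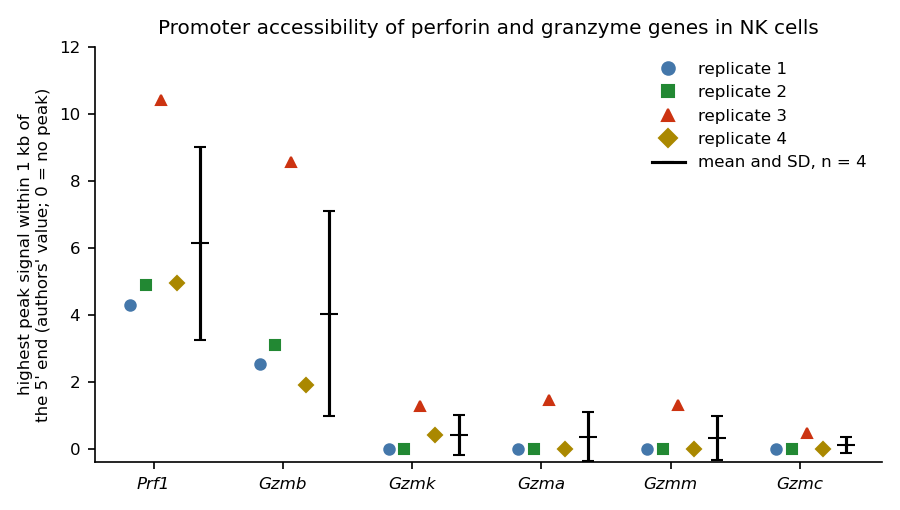
Highest peak signal within 1 kb of the gene start (authors' value, 0 where there is no peak) for each of the 6 genes, one point per library with the mean and SD over 4 libraries beside them. All 4 points of Prf1 (4.29 to 10.4) and of Gzmb (1.92 to 8.56) lie above 0, and those of the other genes lie at or near 0 except in replicate 3.

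By mean promoter signal the order was Prf1, Gzmb, Gzmk, Gzma, Gzmm and Gzmc. Prf1 ranked above Gzmb in 4 of 4 libraries, by 9.55 ± 4.48 percentage points of genes with a lower signal (SD, n = 4; exact two-sided sign-flip test, p = 0.13, adjusted over 5 neighbour pairs 0.3125). Gzmb ranked above Gzmk in 4 of 4 libraries, by 43.9 ± 27.2 points (exact p = 0.13, adjusted 0.3125). With 4 libraries this is the smallest p the test can give, so no pair can pass 0.05. A promoter without a peak was set to 0 points. In replicate 4, where 49.8% of genes had a promoter peak, the weak Gzmk peak of 0.404 already gave 51.0 points. Steps that involve a missing peak therefore reflect mostly whether a peak was called. Gzmk, Gzma, Gzmm and Gzmc followed each other at 12.5 ± 25.7, 0.232 ± 0.465 and 1.75 ± 3.49 points, each step resting on 1 of 4 libraries (exact p = 1), and did not differ beyond their spread. The place of Gzmk above Gzma turns round without replicate 4, to -0.362 points, and with the shorter peak list, to -0.268 points.

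The authors' lists of single bases of low FDR divided the members in the same way. These lists and the peaks come from the same libraries, so this is no independent support. Within 500 bp of the Prf1 start, 491, 535, 614 and 459 bases had an FDR below 0.001 in replicates 1 to 4, a mean of 525 ± 67.2 (SD, n = 4). At the Gzmb start the counts were 596, 721, 812 and 428, a mean of 639 ± 166 (SD, n = 4). So Gzmb had the wider patch of strongly cut bases in replicates 1, 2 and 3, Prf1 in replicate 4, although Prf1 had the higher peak signal in every library. Bases at this threshold in all 4 libraries were present at 2 of 6 members and at 43.3% of all genes.

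At the starts of the other members such bases were rare. Gzmm had 194 bases with an FDR below 0.001 in replicate 3 and none in the other libraries, and Gzmk had 328 in replicate 3 and none in the others. Within 500 bp of the start, Gzma and Gzmc had none in any library. The stronger Gzma peak, 1.04 kb upstream, lay outside these 500 bp and held 241 such bases in replicate 3. At an FDR below 0.05 within 500 bp, Gzma had 296 bases, Gzmc 224, Gzmm 298 and Gzmk 462 in replicate 3. Gzmk alone had bases in another library, 66 in replicate 4. The lowest FDR within 500 bp was 0.00146 at Gzma and 0.00104 at Gzmc, both in replicate 3, just above the stricter threshold. At the FDR below 0.05, 46.7% of all genes had bases in all 4 libraries, against 2 of 6 members.

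**Figure D2:**
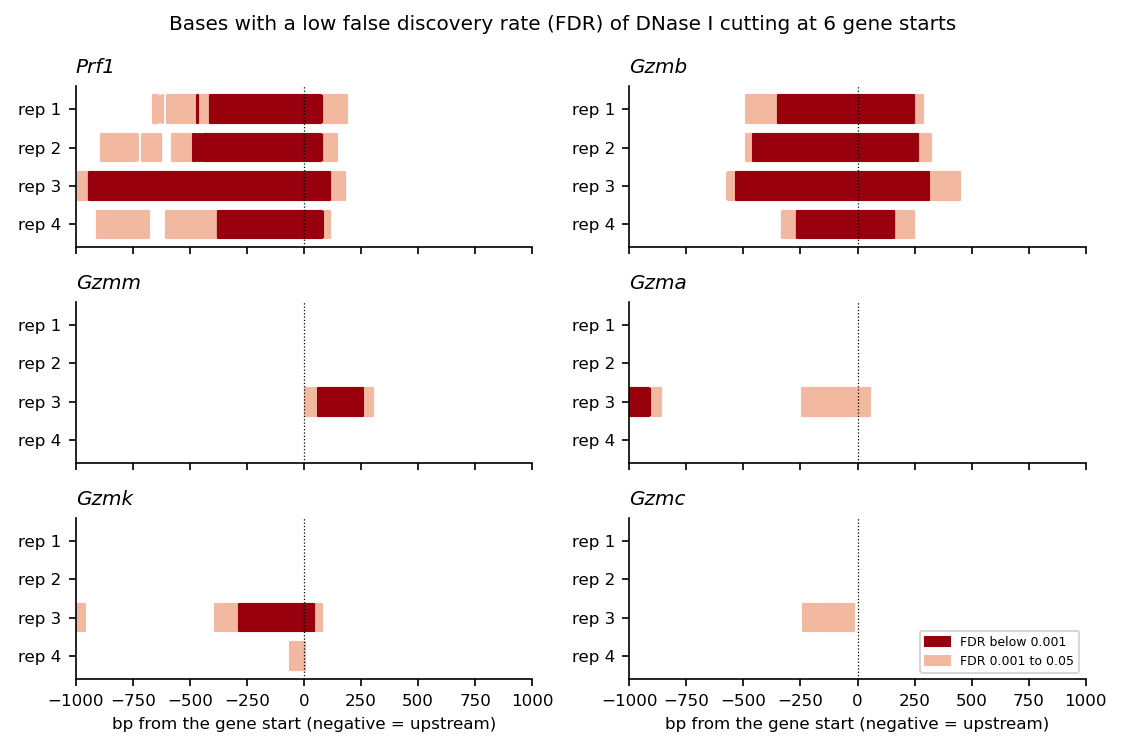
Low-FDR bases of DNase I cutting from 1000 bp upstream to 1000 bp downstream of each gene start, one row per library, dark for an FDR below 0.001 and light for 0.001 to 0.05. Prf1 and Gzmb have a continuous dark block over the start in every row, and the other 4 genes have marks in replicate 3, plus a short light one for Gzmk in replicate 4.

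The remaining granzymes of the chromosome 14 cluster, Gzmd, Gzme, Gzmf, Gzmg and Gzmn, had no promoter peak and no base with an FDR below 0.05 within 500 bp of the start in any library. These genes and Gzmc are close copies of one another, and the treatment of reads that match several copies is not known here, so a lack of signal at them is uncertain. A cytotoxic granule list was chosen with earlier results of these data known, so counts from it are a description only. Of its 15 genes that are no granzymes, 13 had a recurrent promoter region, against 50.3% of all genes. Among these were Lamp1, a granule membrane protein (6.69 ± 1.81), Ctsc, the protease that activates pro-granzymes (5.73 ± 1.08), Nkg7, a granule protein (4.57 ± 2.13), Rab27a, a GTPase of granule docking (4.26 ± 1.62), and Serpinb6b, a serine protease inhibitor (3.87 ± 2.20; SD, n = 4 for each). Unc13d, the granule priming factor Munc13-4, had 3.34 ± 1.48, and Ifng, which encodes interferon gamma, had 2.18 ± 0.962 (SD, n = 4). Stx11 and Stxbp2, of the granule fusion machinery, had 3.83 ± 1.99 and 2.45 ± 0.560, and the death ligand genes Fasl and Tnfsf10 had 3.13 ± 1.60 and 1.21 ± 0.444 (SD, n = 4 for each). The lowest of the recurrent ones were the cathepsin genes Ctsw, at 1.54 ± 0.813, and Ctsh, at 0.557 ± 0.0983 (SD, n = 4 for each). The exceptions were Srgn, the granule proteoglycan serglycin, which had no peak at its gene start but a recurrent region at another transcript start, and Serpinb9, an inhibitor of granzyme B, with peaks of 0.614 in replicate 2 and 2.13 in replicate 3 and likewise a recurrent region at another start.

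The genes whose promoter pattern over the 4 libraries was nearest that of Prf1 were Tyk2, a Janus kinase of cytokine receptors, and Arl6ip5, with a mean absolute difference of 0.0496 and 0.0755 on the log2 scale among 10332 genes with a promoter peak in all 4 libraries. For Gzmb they were Samd9l, an interferon-induced gene (0.131), and Gm12258, a gene model (0.133). Tyk2 had promoter signals of 4.28, 5.03, 10.3 and 5.46, and Samd9l had 2.91, 2.83, 7.74 and 2.00 in replicates 1 to 4.

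Around the genes, recurrent regions outside promoters (distal regions) were more densely spaced at Prf1 than at the other members. Of the 91 regions in the loci, 47 were recurrent (51.6%), against 46.8% of all regions of the genome, and 38 were found in all 4 libraries (41.8%), against 34.7%. A further 31 were found in a single library (34.1%), against 41.5%. Of these 31, 24 were in replicate 3, the library with the most peaks in the genome. The genome share of replicate 3 among such regions was not counted. Of the 47 recurrent regions, 38 were distal, 3 lay at member promoters and 6 at promoters of other genes. The Prf1 locus had 16 recurrent distal regions, or 15.0 per 100 kb, and the Gzmb and Gzmc locus had 4.59, the Gzmm locus 4.71 and the Gzma and Gzmk locus 4.74. With the authors' shorter peak list the count at Prf1 was 7, against 4 at Gzmb and Gzmc, 5 at Gzmm and 6 at Gzma and Gzmk. Counted on the longer list in each gene's own window, 99.6% of protein-coding genes had fewer recurrent distal regions than Prf1, 92.7% had fewer than Gzma with 8, 79.5% had fewer than Gzmm with 5, and 71.0% had fewer than Gzmb, Gzmc or Gzmk with 4 each. The 38 distal regions had a median mean signal of 1.50, against 1.12 over the 23626 recurrent distal regions of the genome, and the same median width of 240 bp.

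**Figure D3:**
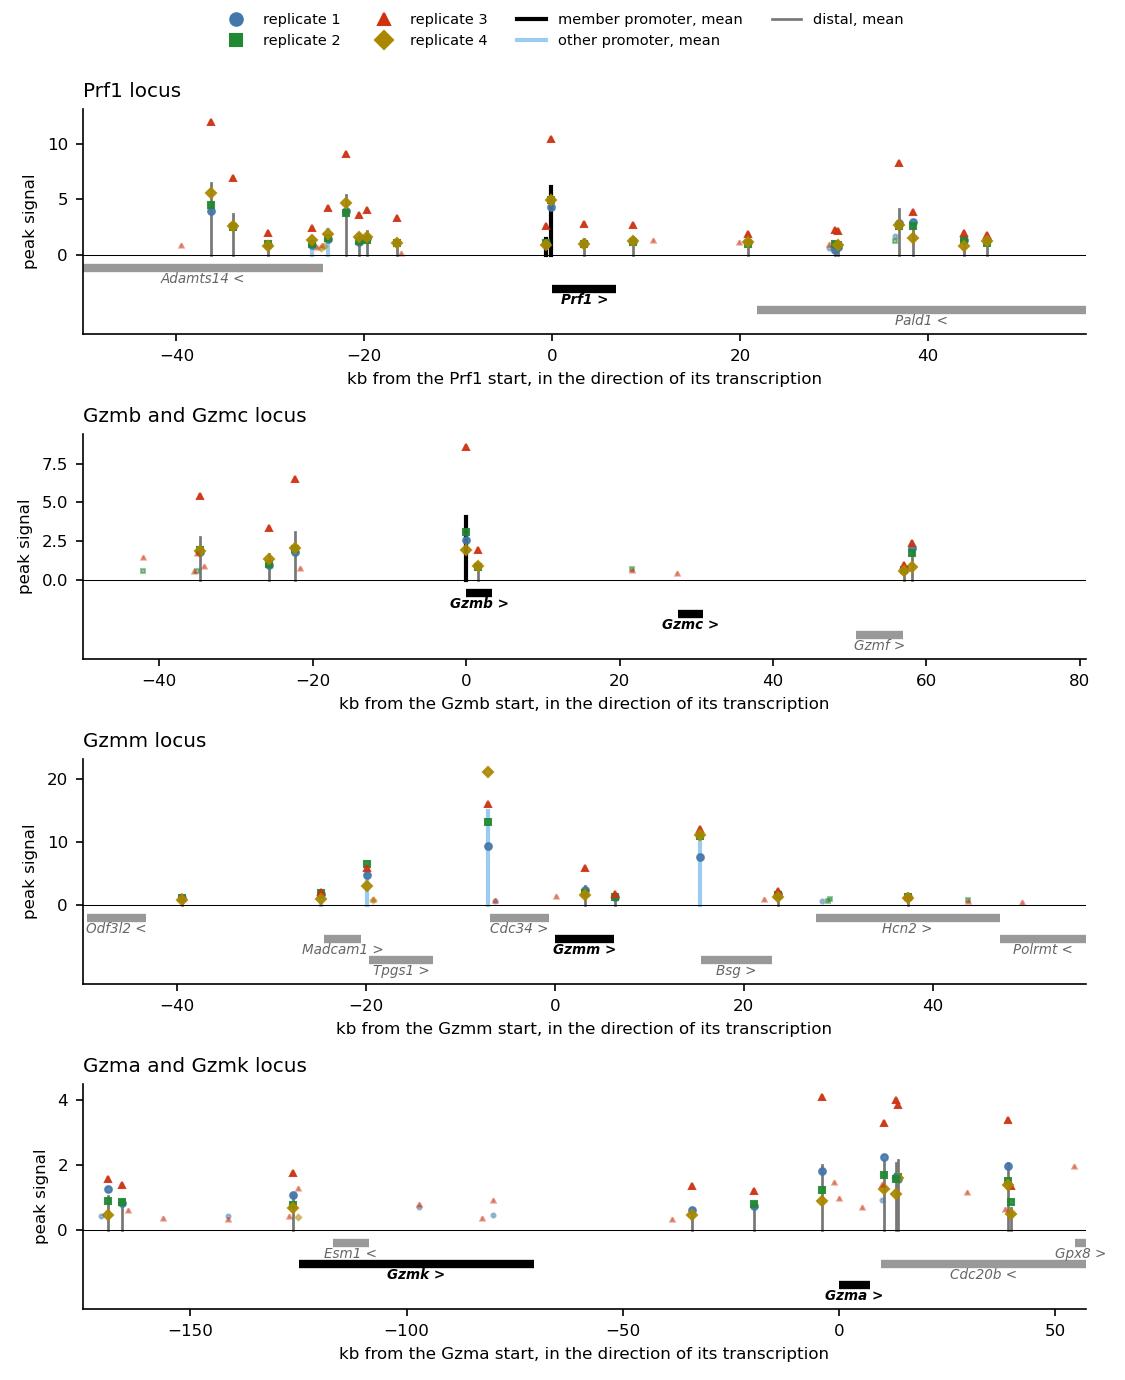
Peak signal (authors' value) of every region in the 4 loci against the distance in kb from the start of the first named gene, one point per library (small and pale where fewer than 3 libraries have a peak), with a vertical line at the mean of each recurrent region and gene bodies drawn under the axis. Prf1 is flanked by 16 recurrent distal regions and the strongest reach the height of its promoter, whereas recurrent regions in the other loci are sparser.

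At Prf1, 7 of the 16 distal regions lay upstream and 9 downstream. The strongest was 36.4 kb upstream, in an intron of Adamts14, a gene for a procollagen-processing metalloprotease (chr10:61261181-61261760). Its signal was 3.94, 4.49, 11.9 and 5.55 in replicates 1 to 4, a mean of 6.48 ± 3.70 (SD, n = 4). It was above the Prf1 promoter in replicates 3 and 4 and below it in replicates 1 and 2, so the 2 regions differed by less than the spread between libraries. All 580 bases of it had an FDR below 0.001 in every library, and 86.0%, 85.8%, 96.6% and 88.7% of the peaks in replicates 1 to 4 were weaker.

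The next was intergenic, 21.9 kb upstream (chr10:61275721-61276060), with signals of 3.98, 3.80, 9.06 and 4.66, a mean of 5.38 ± 2.49 (SD, n = 4). On the other side of the gene, a region 36.9 kb downstream in an intron of Pald1 (chr10:61334621-61334840) had 2.84, 2.60, 8.27 and 2.65, a mean of 4.09 ± 2.79 (SD, n = 4). A region 33.9 kb upstream in another stretch of the Adamts14 intron sequence (chr10:61263601-61264200) had 2.60, 2.46, 6.95 and 2.59, a mean of 3.65 ± 2.20 (SD, n = 4). On the deposited scale, replicate 3 was the highest library in these 4 regions, and replicates 1, 2 and 4 lay closer to each other than to it. The remaining 12 had means of 0.910 to 2.73. One of them lay 3.38 kb downstream, in a Prf1 intron (chr10:61301081-61301340), with signals of 1.07, 0.946, 2.76 and 0.999. Adamts14 had its own promoter regions in this window, the stronger at 2.27 ± 1.31 (SD, n = 4).

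In the Gzmb and Gzmc locus the 2 distal regions with the highest mean signal lay upstream of Gzmb, away from Gzmc. Next came one on the far side of Gzmc, described below (mean 1.75). A region 22.3 kb upstream of the Gzmb start, which is 49.9 kb upstream of the Gzmc start (chr14:56284361-56284680), had signals of 1.79, 2.00, 6.51 and 2.07, a mean of 3.09 ± 2.28 (SD, n = 4). A region 34.7 kb upstream of Gzmb and 62.3 kb upstream of Gzmc (chr14:56296861-56297080) had 1.81, 1.94, 5.42 and 1.87, a mean of 2.76 ± 1.77 (SD, n = 4). Between them, 25.7 kb upstream of Gzmb and 53.3 kb upstream of Gzmc (chr14:56287881-56288120), a region had 0.964, 1.02, 3.37 and 1.31, a mean of 1.66 ± 1.15 (SD, n = 4). All 3 are intergenic and were highest in replicate 3.

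The start of Gzmc had no recurrent region near it on either side. The nearest was in an intron of Gzmb, 26.1 kb upstream of the Gzmc start and 1.50 kb downstream of the Gzmb start (chr14:56260661-56260860), with no peak in replicate 1 and 0.806, 1.90 and 0.913 in replicates 2, 3 and 4. On its far side, 30.5 kb downstream and past the end of Gzmf (chr14:56204101-56204280), a region had 2.02, 1.75, 2.38 and 0.846, a mean of 1.75 ± 0.654 (SD, n = 4). Here replicate 4 was the low library, and replicate 3 was close to replicates 1 and 2.

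Gzmm had no recurrent region at its start, but its body was accessible. A region in a Gzmm intron, 3.17 kb downstream of the start (chr10:79692041-79692340), had signals of 2.39, 1.88, 5.81 and 1.60, a mean of 2.92 ± 1.95 (SD, n = 4), the highest of the 5 distal regions of the locus. Its bases with an FDR below 0.001 numbered 300, 289, 300 and 258 of 300 in replicates 1 to 4. The next lay 23.6 kb downstream (1.66 ± 0.448), 37.3 kb downstream in an intron of Hcn2, an ion channel gene (1.27 ± 0.172), and 6.40 kb downstream, where replicate 4 had no peak (1.07 ± 0.748; SD, n = 4 for each). This locus is gene-dense, and the strongest regions were promoters of other genes. The promoter of Cdc34, the gene of a ubiquitin-conjugating enzyme that ends just before Gzmm, had 15.0 ± 4.95, and Bsg, which encodes the surface protein basigin, had 10.5 ± 1.97. Tpgs1, a tubulin polyglutamylase subunit, had 5.03 ± 1.53 and Madcam1, a vascular addressin, had 1.60 ± 0.497 (SD, n = 4 for each). The neutrophil protease genes Elane and Prtn3, further along the chromosome, had no promoter peak in any library.

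The Gzma and Gzmk locus held 11 recurrent distal regions, none at either start, and the 4 with the highest mean signal lay nearer to Gzma than to Gzmk. A region 13.6 kb downstream of the Gzma start and 138 kb downstream of the Gzmk start, in an intron of Cdc20b (chr13:113087301-113087560), had signals of 1.56, 1.61, 3.85 and 1.60, a mean of 2.16 ± 1.13 (SD, n = 4). Its neighbours in the same gene lay 10.3 kb downstream (2.12 ± 0.872), 13.2 kb downstream (2.07 ± 1.31) and 39.0 kb downstream of the Gzma start (2.06 ± 0.925; SD, n = 4 for each). The recurrent region nearest to a Gzma start lay 3.97 kb upstream, between the genes (chr13:113104841-113105060), with 1.80, 1.24, 4.09 and 0.894, a mean of 2.00 ± 1.44 (SD, n = 4), and is 121 kb downstream of the Gzmk start.

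Gzmk had 3 recurrent regions nearer to it than to Gzma. The closest lay 1.37 kb upstream, just beyond the promoter window (chr13:113227141-113227418), with 1.07, 0.755, 1.75 and 0.682, a mean of 1.06 ± 0.488 (SD, n = 4). Of its 278 bases, 71, 0, 278 and 119 had an FDR below 0.001 in replicates 1 to 4. The others lay 40.9 kb upstream (0.766 ± 0.573) and 44.1 kb upstream (1.04 ± 0.483; SD, n = 4 for each). Esm1, an endothelial gene inside the Gzmk body, had no promoter peak in any library.

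Replicate 3 was the high library at most regions of the Prf1, Gzmb and Gzmc, and Gzma and Gzmk loci, also after scaling, and less so at Gzmm. On the deposited scale it was highest at 36 of the 38 member-locus regions found in all 4 libraries, against 77.2% of such regions in the genome. After each library's signals were divided by its median over these regions, replicate 3 was highest at 22 of 38, against 19.1%, and at 18 of the 29 distal ones, against 28.5%. The scaled signal of replicate 3 was at least 1.5 times the mean of the other libraries at 11 of 29 distal regions, against 12% of distal regions in the genome. The median of this ratio over distal regions was 1.43 at Prf1, 1.73 at Gzmb and Gzmc, 0.853 at Gzmm and 1.24 at Gzma and Gzmk, against 0.951 over the genome. Member promoter regions had ratios of 1.29 and 1.55 at Prf1 and 2.05 at Gzmb, against a median of 0.832 over promoter regions of the genome. Promoters of other genes in the windows had a median of 0.803. It differed between loci. The median was 1.38 in the Prf1 locus (2 regions, both of Adamts14), near the Prf1 promoter itself. In the Gzmm locus it was 0.737 (4 regions). No test was run of this difference, and with a single library on one side none is available.

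The promoters of marker genes differed between libraries at the same time. The 7 NK markers that are no members (Ncr1, Klrb1c, Klrk1, Klrd1, Il2rb, Tbx21 and Eomes) had a summed promoter signal of 34.7 in replicate 3, with peaks at all 7, and 11.4, 12.8 and 11.6 in replicates 1, 2 and 4, with peaks at 4, 5 and 3. The 6 B cell markers summed to 1.73 in replicate 3, with peaks at 2, and to 3.56, 7.42 and 5.43 in replicates 1, 2 and 4. The 9 T cell markers summed to 0.598 in replicate 3 and 0.505 to 1.12 in the others. The 6 myeloid markers summed to 10.3 in replicate 3 and 4.96 to 5.80 in the others, with Csf1r, Lyz2 and Cd14 at 0 in all. The rest of that list, Spi1 (mean 3.09), Cebpa (2.36) and Itgam (1.19), had promoter peaks in all 4 libraries. The 5 neutrophil markers were at 0 in every library. Of 7 mast cell markers, Kit was recurrent, Cma1 had a peak in replicate 3 (0.615), and the defining genes Cpa3, Ms4a2, Fcer1a, Mcpt4 and Tpsb2 were at 0 in all, with list sums of 1.77 in replicate 3 and 0.596 to 1.01 in the others. The 6 housekeeping promoters summed to 101 in replicate 3 and 63.9 to 85.6 in the others. Whether the make-up of the cells, depth or library quality has a part in the member values of replicate 3 was not tested.

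**Figure D4:**
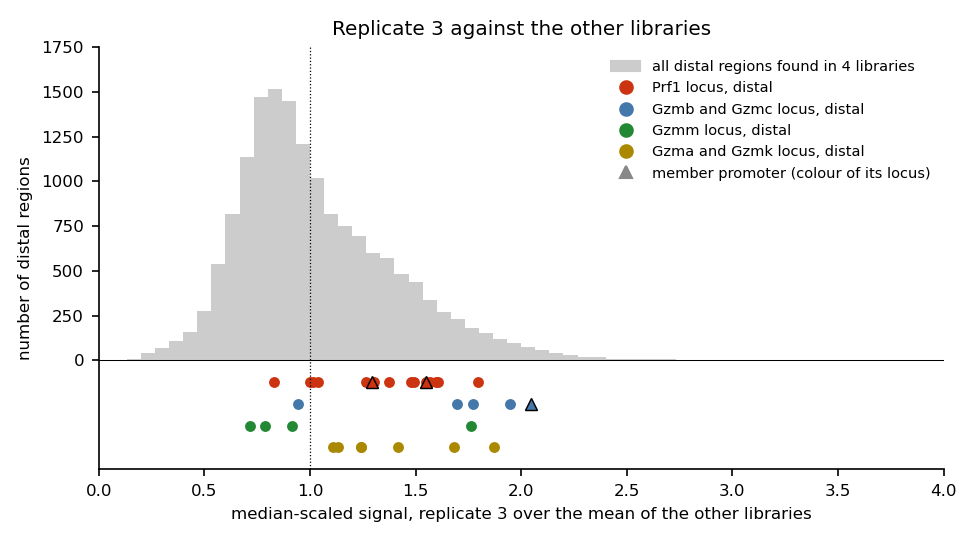
Median-scaled signal of replicate 3 over the mean of the other 3 libraries, as a histogram for all distal regions of the genome found in 4 libraries and as points for distal regions (circles) and member promoters (triangles) of the 4 loci, drawn below the axis. The ratio is at least 1.5 at 5 of 14 distal regions of Prf1, 3 of 4 of Gzmb and Gzmc, 1 of 4 of Gzmm and 2 of 7 of Gzma and Gzmk, against 12% in the genome.

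Footprints were called by the authors in each library. Overlapping footprints of different libraries were merged, and a merged footprint was called reproducible if at least 3 libraries contributed. The 4 loci held 358 merged footprints, of which 66 were reproducible (18.4%), against 22.6% of 278941 in the genome, and 238 came from a single library. Reproducible footprints numbered 19 at Prf1, 12 at Gzmb and Gzmc, 31 at Gzmm (25 of them in promoters of other genes) and 4 at Gzma and Gzmk. These counts depend on the rule. With 1 library left out and 2 of the other 3 required, they were 24 to 31 at Prf1, 17 to 20 at Gzmb and Gzmc, 35 to 39 at Gzmm and 9 to 14 at Gzma and Gzmk. Where at least 50% of each footprint had to overlap, Gzmb and Gzmc had 5 and Gzma and Gzmk had 0. Of the 38 recurrent distal regions 24 held at least 1 (63.2%), against 62.4% of distal regions in the genome, and 2 held at least 3 (5.26%), against 11.5%. The count of merged footprints was highest in replicate 3 at Prf1, where it was 86, against 37, 39 and 41 in replicates 1, 2 and 4.

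The Gzmb promoter sequence printed above holds its largest footprint 123 bp upstream of the start, 41 bp long and found in all 4 libraries. In its capitals lie a match to the AP-1 motif TGANTCA (129 bp upstream, all 7 bases), bound by FOS and JUN factors, and one to the RUNX motif TGTGGTT (105 bp upstream, 6 of 7 bases). The second block of capitals, 65 bp upstream and found in replicates 1, 2 and 3, holds the CRE motif GACGTCA bound by ATF and CREB factors (68 bp upstream). Another reproducible footprint lay 95 bp downstream of the start (replicates 2, 3 and 4). In windows of the same 300 bp at all gene starts, 6.88% held the AP-1 motif, 5.11% the RUNX motif and 4.03% the CRE motif on either strand. The CRE motif was added to the search after the Gzmb sequence was seen, so its match here was known beforehand. These matches are a description and are not shown to be bound. Where the footprints of a pair of libraries had to overlap by at least 50% of each, all 3 Gzmb promoter footprints were shared by 2 libraries, so their exact extent differs between libraries.

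The Prf1 promoter sequence holds 4 blocks of capitals, at 241 bp (replicates 1, 2 and 3), 116 bp (replicates 1, 2 and 3), 80 bp (all 4 libraries) and 10 bp (replicates 2, 3 and 4) upstream of the start. All 4 were still shared by 3 libraries under the stricter overlap. None of the 16 searched motifs lay inside them for at least 80% of its length. The ETS motif AGGAAGT, found at 9.38% of all gene starts in 300 bp, occurred 192 and 103 bp upstream, and the nearer match overlapped a footprint by 1 base.

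**Figure D5:**
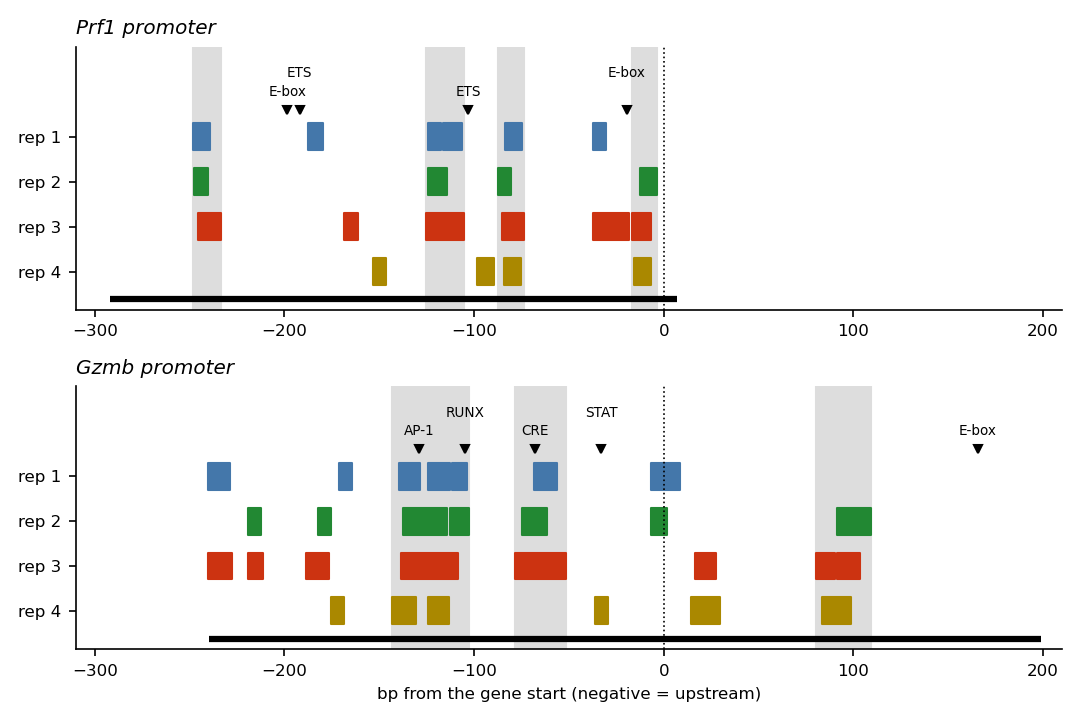
Footprints of each library (coloured bars) from 310 bp upstream to 210 bp downstream of the Prf1 and Gzmb starts, with grey bands for reproducible merged footprints, triangles for motif matches and a black line for the accessible region. The bands at 80 bp upstream of Prf1 and at 123 bp upstream of Gzmb hold bars in all 4 rows.

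In the distal Prf1 sequence above, 3 reproducible footprints lay 36.2 to 36.4 kb upstream, the one nearest the gene in all 4 libraries, and none of the searched motifs fell inside them. The region 21.9 kb upstream held a footprint of 41 bp in all 4 libraries over an E-box CAGGTG, a motif of ZEB factors and E proteins, and a footprint of 35 bp in all 4 libraries 38.5 kb downstream held the same motif. A footprint of 31 bp in all 4 libraries 43.9 kb downstream, in a Pald1 intron, covered all 13 bases of a match to the CTCF motif, bound by an insulator protein. The distal Gzmb sequence holds a footprint of 43 bp in all 4 libraries 22.2 kb upstream, and another over a CA repeat (replicates 1, 2 and 3), for which the treatment of reads from repeats is not known here. A footprint 34.7 kb upstream of Gzmb, in all 4 libraries, held the KLF motif GGGTGTG. A footprint of 26 bp in all 4 libraries, 25.7 kb upstream of Gzmb, held the E-box CAGCTG, a motif of E proteins. The distal Gzmm sequence held 1 merged footprint of 14 bp in all 4 libraries, and the distal Gzma sequence 1 of 24 bp in all 4 libraries. Under the stricter overlap used for the promoters, the 43 bp Gzmb and 24 bp Gzma footprints were each shared by 2 libraries. The one over the CA repeat was left with 1 library. The 35 bp, 31 bp, KLF and 14 bp footprints were still shared by 4 libraries, and the 41 bp and 26 bp ones by 3. Of those in the distal Prf1 sequence, the nearest to the gene kept 4 libraries, the next 3 and the farthest 2.

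Across the 38 distal regions each searched motif occurred in 0 to 12, and the counts are too small to order. Shares are given beside those over all 23626 recurrent distal regions in windows of the same widths. The E-box CAGCTG of E proteins was in 12 regions (31.6%, against 18.96%), AP-1 in 6 (15.8%, against 10.8%), ETS in 6 (15.8%, against 15.7%), NFAT (TGGAAAA) in 5 (13.2%, against 4.87%) and the T-box motif GGTGTGA of T-bet and Eomes in 5 (13.2%, against 6.70%). RUNX was in 4 (10.5%, against 11.9%), the E-box CAGGTG in 7 (18.4%, against 24.1%) and CTCF in 1 (2.63%, against 11.5%). The KLF motif was in 3 regions (7.89%, against 9.47%), and the C/EBP motif TTGCNNAA was also in 3 (against 10.2%). The GATA motif AGATAAG, read by a family of zinc finger factors, was in 2 (5.26%, against 2.99%), as was the IRF motif (against 4.13%). The STAT motif TTCNNNGAA occurred in a single region (2.63%, against 7.40%). An ETS variant, CGGAAGT, likewise occurred once (against 3.12%), and the NF-kB and CRE motifs in none (against 0.687% and 2.01%). Some regions hold several motifs, and the KLF and T-box letters can overlap each other, as they do in the distal Prf1 sequence. Few matches lay in a reproducible footprint for at least 80% of their length. These were 3 of CAGCTG, 2 of CAGGTG, 1 of KLF and 1 of CTCF. The other motifs, among them RUNX, ETS, T-box, AP-1 and NFAT, had 0 such matches.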

How the data were processed

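The files are DNase-seq outputs for 4 libraries on mm10, made per library from its own alignments, per the deposited readmes. Aligner and callers: not given in the sources used here. A peak in the authors' lists carries a deposited signal, and the longer of the 2 lists was used. The authors' FDR files give a p-value like FDR per base below 0.05, and their footprints carry a constant p-value of 0.01. Peaks that touched or overlapped between libraries were merged, and each region was given to the nearest member start. Genes came from GENCODE M21, and sequences and motif matches from GRCm38.p6, the assembly behind mm10. Python 3.11.15, pandas 2.3.3, numpy 2.4.6 and pysam 0.24.0 were used. The interval code was tested on simulated data. The members, gene lists and markers were chosen with earlier results of these data known, and the CRE motif was added after the Gzmb sequence was seen. Named regions are the up to 4 distal recurrent ones with the highest mean signal per locus and all at member promoters, and others named were chosen after their values were seen. Named genes are the members, the other granzymes, the granule list, genes with promoters in the windows, the 2 nearest in pattern and the listed cell type markers, of which some are given by their list's count and sum only. Alternatives were other library counts, peak lists, windows, flanks, overlaps, scalings and FDR limits, and leaving out each library.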

Additional observations from a re-analysis of the deposited data

Results flagged for a closer look

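In 25 sets of 4 library values, the highest or lowest library was compared with its nearest neighbour, as the gap between them over the whole range of the 4, against Dixon's critical value for 4 samples. Chance alone passes about 1 in 20 such sets if the libraries share a common scale, which is not known here. In all, 11 passed, 10 of them with replicate 3 highest. The sets are not independent, since all share the same libraries.

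Replicate 3 stood apart at the Prf1 promoter, with a gap of 0.891 (10.4, against 4.96 in the next library). At distal regions of Prf1 the gap was 0.969 at the one 33.9 kb upstream (6.95, against 2.60), 0.836 at 21.9 kb upstream (9.06, against 4.66) and 0.957 at 36.9 kb downstream (8.27, against 2.84). At distal regions of Gzmb it was 0.941 at 22.3 kb upstream (6.51, against 2.07), 0.857 at 25.7 kb upstream (3.37, against 1.31) and 0.963 at 34.7 kb upstream (5.42, against 1.94). At the region 13.6 kb downstream of the Gzma start it was 0.979 (3.85, against 1.61).

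Replicate 3 also had the most merged footprints in the Prf1 locus (86, against 41 in the next library, a gap of 0.918) and the most regions with a peak there (27, against 22, a gap of 0.833). The one set in which another library stood apart was the count of merged footprints in the Gzmm locus, lowest in replicate 4 (34, against 44, a gap of 0.909). These gaps are on the deposited scale, and replicate 3 had the highest deposited signal at 77.2% of all regions found in 4 libraries. Divided by each library's median, the Prf1 promoter signals were 2.47, 2.47, 3.66 and 3.56 in replicates 1 to 4. Replicate 4 was then near replicate 3. At the region 21.9 kb upstream, replicate 4 was above replicate 3 (3.34, against 3.18). At the other flagged regions replicate 3 stayed highest.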

How the results depend on the processing

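Of 175 alternative values, 28 moved and 2 turned round. The other 145 were single values that moved by less than the spread between libraries, counts that moved by at most 1.5 times, and steps in the promoter order that did not turn round. The spread is wide where 1 library holds the signal. Without replicate 3 the promoter means of Gzmm, Gzma and Gzmc were 0, that of Gzmk was 0.135 and that of Gzmb 2.52, and the steps from Gzma to Gzmm and from Gzmm to Gzmc were 0 points, with no direction left. With the shorter list Gzmc was at 0 and the step from Gzmm to Gzmc was 13.9 points, as a promoter without a peak was set to 0 points. The count of members with a recurrent promoter stayed at 2 or 3 in all 9 alternatives, the third being Gzmk. The 2 that turned round are the step from Gzmk to Gzma, at -0.268 points with the shorter peak list and -0.362 without replicate 4 (up to 17.0 without replicate 3). The cause was not tested. Recurrent distal regions numbered 7 at Prf1, 4 at Gzmb and Gzmc, 5 at Gzmm and 6 at Gzma and Gzmk with the shorter list, and 7 at Gzma and Gzmk with 4 of 4 libraries required. With flanks of 25 kb they numbered 9 at Prf1, 2 at Gzmb and Gzmc, 3 at Gzmm and 6 at Gzma and Gzmk, and with 100 kb 8 at Gzmm, since less or more sequence was searched. The median count of low-FDR bases over distal regions of Gzma and Gzmk was 116.5 below 0.001 and 248.5 below 0.05. Reproducible footprints depended most on the rule. With 2 of 4 libraries they numbered 37 at Prf1, 24 at Gzmb and Gzmc and 19 at Gzma and Gzmk, and with 4 of 4 they numbered 10, 6 and 1. With at least 50% of each overlapped, Gzmb and Gzmc had 5 and Gzma and Gzmk 0. Without 1 library, and with 2 of the other 3 required, they ranged from 24 to 31 at Prf1, 17 to 20 at Gzmb and Gzmc, and 9 to 14 at Gzma and Gzmk. In the central 150 bp of distal regions the IRF motif was in 1, the E-box CAGGTG in 3 and C/EBP in 1. No paired comparison of conditions was possible because there is 1 group. Depth is unknown, so a missing peak in replicates 1, 2 or 4 is not shown to be closed chromatin.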
